A study of Mus musculus with 28 samples.

Results

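Mecom, Hlf, Meis1, Prdm16, Msi2 and Gpr56 are genes with known roles in blood stem cells, and their RNA was followed here from embryonic endothelium to the earliest blood populations of the mouse. They were taken by symbol from the deposited count table, in which they are 6 of 24015 genes. Each of the 28 libraries was made from a pool of 100 sorted cells, and every group, the endothelial comparison groups included, carried the 23GFP transgene. At E8.5 the tissue PAS+VU gave 3 libraries of endothelial cells (EC) and 4 of HE, hemogenic endothelium, from which blood cells form. At E9.5 the same tissue gave EC, HE and cells called pro-HSC/HPC, and at E10.5 the tissue AGM+VU gave EC and HE together with the blood precursors named pre-HSC I and pre-HSC II, and each of these 7 populations has 3 libraries. PAS, AGM and VU are not spelled out in the labels, and neither the promoter of the transgene nor the sort gates are stated there.

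Blood stem cells of the adult arise in the embryo from HE in the wall of the large arteries, through intermediates that lose endothelial and gain blood surface proteins. Mecom (also called Evi1) and Prdm16 are zinc finger proteins of the PRDM family that maintain blood stem cells. Meis1 is a homeodomain protein that binds DNA together with PBX and HOX partners, and Hlf is a PAR-type basic leucine zipper factor whose expression marks blood stem cells. Msi2 is an RNA-binding protein that controls translation in stem cells, and Gpr56 (Adgrg1) is an adhesion receptor coupled to G proteins that is found on the surface of stem and progenitor cells.

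Library totals ran from 16308918 to 31405603 counts, with 13935 to 16050 genes detected. Levels are given as CPM, a gene's counts scaled to the size of its library, and all 6 genes passed the filter on low counts that left 15238 genes for testing. The design text states that biological replicates are included. Since the labels tie no replicate to a litter or embryo, p-values refer only to the spread among the samples sequenced, part or all of which may be technical. Each library is a pool, so fewer cells of a type and less RNA per cell cannot be told apart. The labels were checked against marker lists, each summarised as the mean log2(CPM + 1) of its genes. The 10 endothelial markers, led by the endothelial cadherin Cdh5, lay between 6.51 and 8.12 in all EC and HE libraries with no marker at 0, lowest in E8.5 EC, and between 4.84 and 5.06 in pre-HSC II. In pro-HSC/HPC they lay between 7.37 and 7.71, overlapping EC of E9.5. In pre-HSC I they lay between 6.33 and 6.81, overlapping EC of E8.5. Only pre-HSC II therefore lay below all EC libraries by this list. HE of E9.5 (7.83 to 8.12) and of E10.5 (7.97 to 8.09) lay above all EC libraries. The 10 blood markers lay between 0.86 and 2.41 in EC and HE, where Ptprc, which encodes CD45, averaged at most 0.707 CPM. They reached 3.71 to 4.28 in pro-HSC/HPC, 5.34 to 5.91 for pre-HSC I and 6.66 to 6.73 for pre-HSC II. Some libraries stood apart in markers of other cells. Summed over 9 erythroid genes, pro-HSC/HPC replicates 2 and 3 held 12129 and 4061 CPM against 11.8 in replicate 1, and pre-HSC I replicate 3 held 1404 CPM against 21.0 and 16.4. Summed over 10 mesenchyme and smooth muscle genes, E9.5 EC replicate 3 held 559 CPM against 90.8 and 108 in the other EC libraries of that day, and E10.5 EC replicate 2 held 371 CPM against 25.0 and 40.4. These genes summed to 309 to 465 CPM in E9.5 HE and 436 to 594 CPM in pro-HSC/HPC. By their mean log2(CPM + 1), E9.5 EC replicate 3 stood at 4.94, against 2.43 to 2.93 in HE and 2.90 to 3.07 in pro-HSC/HPC. A library is called rich in mesenchyme RNA below only against its own group. E10.5 HE replicate 1 held 916 CPM of the same genes against 227 and 421, and pre-HSC I replicate 1 held 461 CPM against 136 and 262. Summed over 10 megakaryocyte and platelet genes, pro-HSC/HPC replicates 2 and 3 held 492 and 806 CPM against 128 in replicate 1. Summed over 7 cardiac genes, E10.5 HE replicate 1 held 161 CPM against 12.2 and 20.4. Their part in the results was not tested unless a value without them is given.

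The order of the populations differed between the 6 genes. Mecom and Prdm16 were highest in E10.5 HE, whereas Hlf, Meis1, Msi2 and Gpr56 had their highest mean in pre-HSC II. The highest population mean was 768 times the lowest for Gpr56, 94.9 times for Prdm16, 45.4 times for Mecom, 8.39 times for Meis1 and 7.19 times for Msi2, and Hlf had 0 counts in one population. The plot of levels by library shows each gene in every library.

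**Figure D1:**
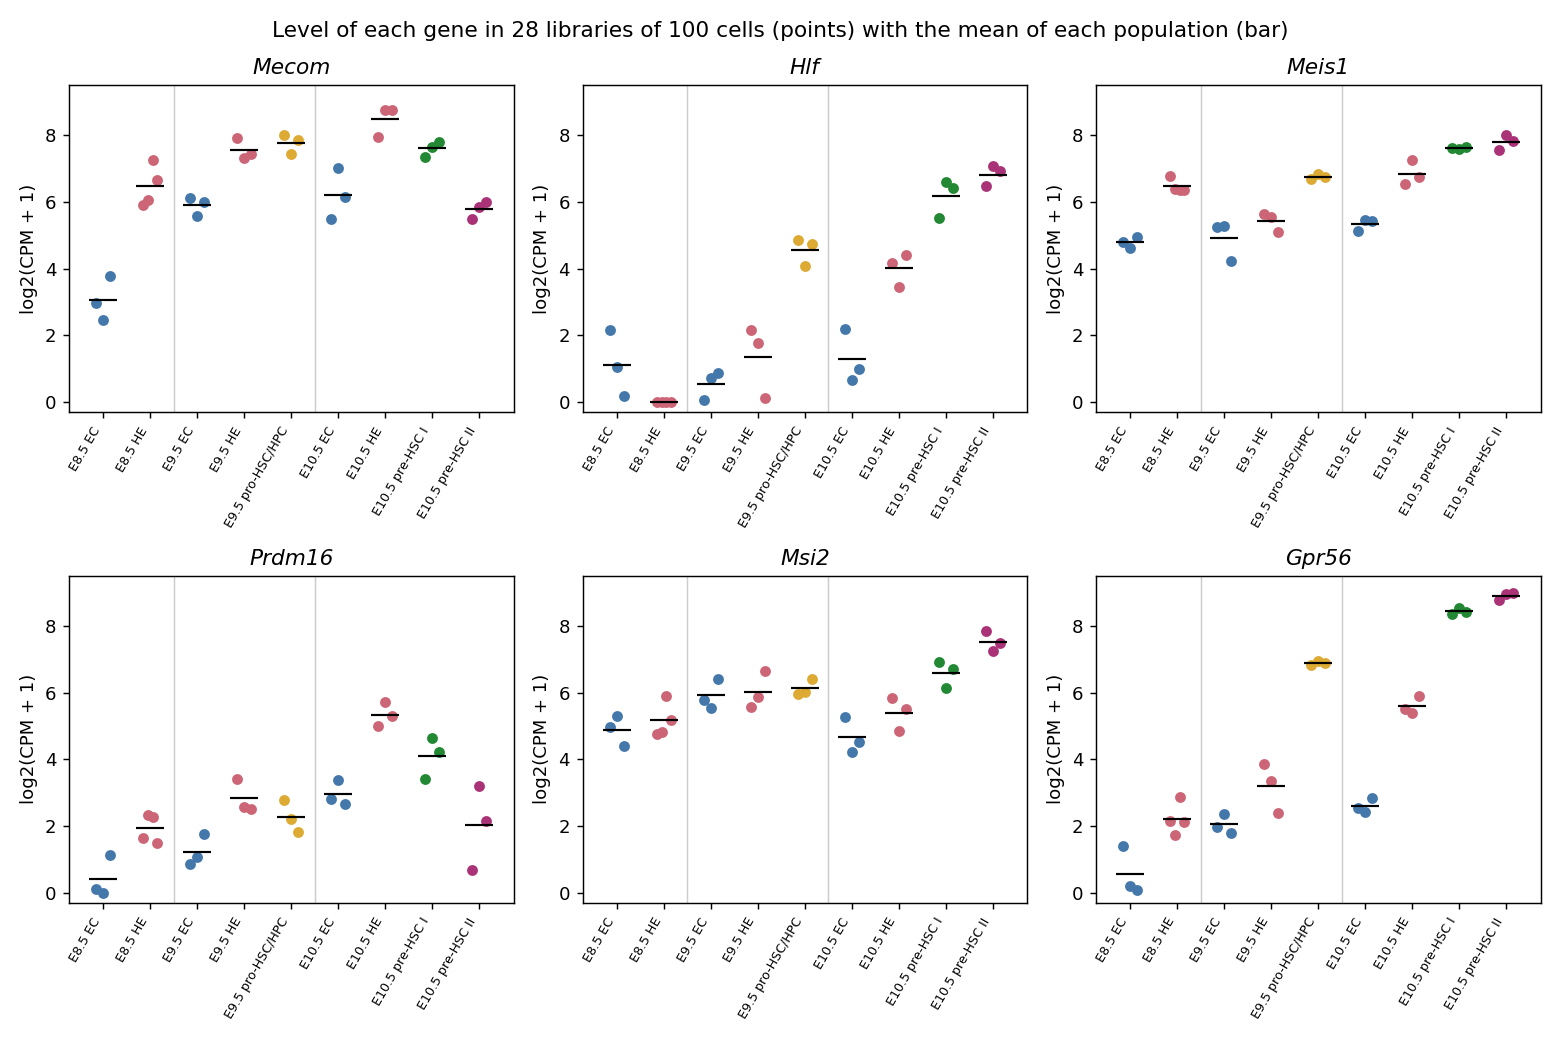
Level of each gene as log2(CPM + 1) (vertical axis) in each of 28 libraries (points), ordered by embryonic day and population (horizontal axis), with the mean of each population as a bar. Mecom peaks in E10.5 HE (mean 365 CPM) and is at 54.2 CPM in pre-HSC II, Gpr56 climbs from 0.624 CPM in E8.5 EC to 479 CPM in pre-HSC II, and Hlf lies at 0 in all 4 E8.5 HE libraries.

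Mecom (chromosome 3, 29850218 to 30408409, mm9, minus strand, counted over 5504 bases of 18 exon blocks) was already high in HE at E8.5 and lowest in EC of that day. The EC libraries of E8.5 had 6.85, 4.51 and 12.7 CPM, and the HE libraries 58.3, 65.9, 152 and 100.2 CPM. At E9.5 EC had 68.9, 46.7 and 62.2 CPM, HE had 238, 159 and 171 CPM, and pro-HSC/HPC had 256, 171 and 228 CPM. HE lay above EC at both days without overlap, and pro-HSC/HPC overlapped HE. At E10.5 EC had 43.5, 127 and 69.3 CPM, HE had 243, 425 and 426 CPM, pre-HSC I had 162, 199 and 222 CPM, and pre-HSC II had 43.8, 56.6 and 62.3 CPM. Pre-HSC II thus overlapped EC of the same day and lay below every HE and pre-HSC I library of that day. In the order of means, E10.5 HE (365 ± 105 CPM, SD), pro-HSC/HPC (218 ± 43.3), pre-HSC I (194 ± 30.4) and E9.5 HE (189 ± 42.4) overlapped from each to the next. A gap of 2.01-fold without overlap separated them from E8.5 HE (94.0 ± 42.5). Below it E10.5 EC (80.1 ± 43.0), E9.5 EC (59.3 ± 11.4) and pre-HSC II (54.2 ± 9.49) again overlapped with their neighbours, and E8.5 EC (8.03 ± 4.23) lay 6.75-fold under the last of these. E10.5 EC replicate 2 and E10.5 HE replicate 1, the libraries rich in mesenchyme RNA, were the highest Mecom value of their EC group and the lowest of their HE group.

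The counts of Mecom sum over transcripts from separate start sites, and the 250 bases before the 2 start sites listed by RefSeq (build GRCm38.p6) are shown because they lie far apart on the chromosome. Both are on the minus strand, at chr3:30509760-30510009 for the first and chr3:30013205-30013454 for the second, and are written 5′ to 3′ up to the start site. Capitals mark matches to short motifs searched on both strands: AGATAA and TGATAA for GATA factors, TGTGGT for RUNX, TGACAG for MEIS, TGATTNAT for HOX-PBX, ACCGGAAG for ETS, TTACGTAA for HLF, CATCTG for E-box factors and GGGCGG for SP/KLF.
Mecom first start: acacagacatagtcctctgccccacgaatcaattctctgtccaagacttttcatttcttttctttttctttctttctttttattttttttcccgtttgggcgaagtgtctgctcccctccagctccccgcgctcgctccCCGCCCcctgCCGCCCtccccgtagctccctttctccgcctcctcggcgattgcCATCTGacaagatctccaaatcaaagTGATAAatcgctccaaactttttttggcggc
Mecom second start: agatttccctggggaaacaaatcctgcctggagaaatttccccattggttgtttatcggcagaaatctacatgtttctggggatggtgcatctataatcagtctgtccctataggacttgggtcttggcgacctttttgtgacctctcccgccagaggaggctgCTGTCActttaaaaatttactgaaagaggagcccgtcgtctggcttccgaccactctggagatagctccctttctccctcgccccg
The first held GGGCGG on the other strand at 111 and 101 bases before the start, CATCTG at 57 and TGATAA at 31. The second held TGACAG on the other strand at 86 bases. No matches overlapped one another. Of 32851 RefSeq promoter windows of the same length, 32.7% hold GGGCGG, 15.9% TGACAG, 14.4% CATCTG, 14.0% TGTGGT, 9.99% AGATAA, 7.94% TGATAA, 2.82% TGATTNAT, 1.72% ACCGGAAG and 0.113% TTACGTAA. A match is a description of letters and not a binding site, and the count table does not tell which start site the reads came from.

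Prdm16 (chromosome 4, 153690234 to 154010982, minus strand, 8611 bases counted) was the lowest of the 6 genes per kilobase in 4 of 9 populations, Hlf being lowest in the other 5, and reached its highest level in E10.5 HE. At E8.5 EC had 0.0806, 0 and 1.19 CPM, and HE had 2.14, 4.03, 3.80 and 1.84 CPM. At E9.5 EC had 0.832, 1.12 and 2.36 CPM, HE had 9.59, 4.89 and 4.74 CPM, and pro-HSC/HPC had 5.88, 3.67 and 2.53 CPM. At E10.5 EC had 6.06, 9.34 and 5.38 CPM, HE had 30.9, 51.4 and 38.4 CPM, pre-HSC I had 9.70, 23.8 and 17.8 CPM, and pre-HSC II had 0.612, 8.26 and 3.45 CPM. HE was above EC in every library of each day, and E10.5 HE was above all other libraries. Its mean of 40.2 ± 10.4 CPM was 2.35 times that of pre-HSC I (17.1 ± 7.08), which in turn was 2.47 times that of E10.5 EC (6.93 ± 2.12), both without overlap. From there down, E9.5 HE (6.41 ± 2.76), pre-HSC II (4.11 ± 3.86), pro-HSC/HPC (4.02 ± 1.71), E8.5 HE (2.95 ± 1.13), E9.5 EC (1.44 ± 0.812) and E8.5 EC (0.424 ± 0.666) each overlapped with the next. The exons of 5930403L14Rik lie inside the span of Prdm16 without sharing exon bases with it.

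Meis1 (chromosome 11, 18780431 to 18918972, minus strand, 3441 bases counted) was above EC in HE at E8.5, lower in HE at E9.5, and high again at E10.5. At E8.5 EC had 27.0, 23.4 and 29.8 CPM, and HE had 109, 83.0, 81.0 and 81.3 CPM. At E9.5 EC had 36.8, 37.7 and 17.9 CPM, HE had 48.2, 45.9 and 33.4 CPM, and pro-HSC/HPC had 102, 113 and 106 CPM. The E9.5 EC library at 17.9 CPM is the one rich in mesenchyme RNA, and EC and HE of that day overlapped. At E10.5 EC had 33.8, 42.8 and 41.7 CPM, HE had 90.9, 152 and 106 CPM, pre-HSC I had 193, 189 and 200.3 CPM, and pre-HSC II had 187, 258 and 227 CPM. All pre-HSC libraries lay above all others. In the order of means, pre-HSC II (224 ± 35.3 CPM) overlapped pre-HSC I (194 ± 5.95), and a gap of 1.67-fold led to E10.5 HE (116 ± 31.8), which overlapped pro-HSC/HPC (107 ± 5.34). Pro-HSC/HPC overlapped E8.5 HE (88.5 ± 13.5), a gap of 2.08-fold without overlap followed, and E9.5 HE (42.5 ± 7.97), E10.5 EC (39.4 ± 4.91), E9.5 EC (30.8 ± 11.2) and E8.5 EC (26.7 ± 3.22) overlapped from each to the next.

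The 250 bases before the RefSeq start site of Meis1 (chr11:19018970-19019219, GRCm38.p6, minus strand) are shown because the gene was called in 5 of the 11 comparisons between populations.
Meis1: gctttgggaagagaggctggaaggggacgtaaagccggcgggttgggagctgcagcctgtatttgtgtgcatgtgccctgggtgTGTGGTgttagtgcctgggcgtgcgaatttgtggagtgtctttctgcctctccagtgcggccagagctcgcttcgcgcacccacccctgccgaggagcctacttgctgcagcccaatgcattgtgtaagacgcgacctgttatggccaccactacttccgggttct
Among the motifs listed for Mecom only TGTGGT was found, in capitals, at 166 bases before the start.

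Hlf (chromosome 11, 90197849 to 90252231, minus strand, 5665 bases in 4 exon blocks) was close to the limit of detection in EC and in early HE and reached its highest levels in the pre-HSC populations. At E8.5 EC had 3.42, 1.06 and 0.125 CPM, from 85, 27 and 2 counts, and the 4 HE libraries had 0 counts. At E9.5 EC had 0.0416, 0.647 and 0.831 CPM, HE had 3.45, 2.44 and 0.0938 CPM, and pro-HSC/HPC had 28.1, 15.9 and 25.5 CPM. A count of 0 allows up to 3 counts, which corresponds to 0.108 to 0.188 CPM depending on the library, and the libraries at 0.125, 0.0416 and 0.0938 CPM, with 2, 1 and 2 counts, are not above it. At E10.5 EC had 3.52, 0.574 and 1.01 CPM, HE had 17.1, 9.93 and 20.4 CPM, pre-HSC I had 44.3, 95.1 and 83.6 CPM, and pre-HSC II had 87.3, 132 and 119 CPM. Pro-HSC/HPC and E10.5 HE lay above all EC libraries and below all pre-HSC libraries, and overlapped each other. By mean, pre-HSC II (113 ± 23.1 CPM) overlapped pre-HSC I (74.3 ± 26.6), 3.21-fold above pro-HSC/HPC (23.2 ± 6.40), and E10.5 HE (15.8 ± 5.35) was 7.92-fold above E9.5 HE (2.00 ± 1.72), both gaps without overlap. E10.5 EC (1.70 ± 1.59), E8.5 EC (1.54 ± 1.70) and E9.5 EC (0.507 ± 0.413) overlapped with their neighbours. The pre-HSC I library at 44.3 CPM is the one rich in mesenchyme RNA.

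The 250 bases before the RefSeq start of Hlf (chr11:90390918-90391167, GRCm38.p6, minus strand) are shown because the gene went from 0 counts in E8.5 HE to 87.3 CPM or more in the pre-HSC II libraries.
Hlf: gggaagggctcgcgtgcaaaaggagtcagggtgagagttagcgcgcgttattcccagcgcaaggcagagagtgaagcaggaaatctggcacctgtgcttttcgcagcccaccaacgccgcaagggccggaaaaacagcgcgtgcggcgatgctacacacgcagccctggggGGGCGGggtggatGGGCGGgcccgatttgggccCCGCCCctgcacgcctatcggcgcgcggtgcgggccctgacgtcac
GGGCGG was found at 79, 66 and 46 bases before the start, the last on the other strand, where it reads CCGCCC. TTACGTAA, the motif bound by HLF itself, was not among the letters of this window. The window is 67.2% G and C, against a median of 52.4% over all promoter windows. The bases just after this start were not found in the GENCODE transcripts of Hlf, unlike those after the Mecom, Meis1 and Gpr56 starts shown.

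Msi2 (chromosome 11, 88152884 to 88579581, minus strand, 6819 bases counted) was detected at 17.5 CPM or more in all 28 libraries and varied least between populations. At E8.5 EC had 30.1, 38.4 and 20.1 CPM, and HE had 26.0, 27.4, 58.0 and 35.5 CPM. At E9.5 EC had 54.3, 45.9 and 83.4 CPM, HE had 46.4, 57.0 and 99.5 CPM, and pro-HSC/HPC had 61.6, 63.9 and 83.7 CPM. EC and HE overlapped at each day, and the E9.5 EC library at 83.4 CPM is the one rich in mesenchyme RNA. At E10.5 EC had 37.6, 17.5 and 22.1 CPM, HE had 56.0, 28.01 and 44.1 CPM, pre-HSC I had 120.2, 69.3 and 102 CPM, and pre-HSC II had 227, 152 and 176 CPM. Only pre-HSC II (185 ± 38.4 CPM) stood clear of its neighbour in the order, 1.90-fold above pre-HSC I (97.3 ± 25.8). Pro-HSC/HPC (69.7 ± 12.2), E9.5 HE (67.6 ± 28.1), E9.5 EC (61.2 ± 19.7), E10.5 HE (42.7 ± 14.0), E8.5 HE (36.7 ± 14.8), E8.5 EC (29.5 ± 9.20) and E10.5 EC (25.7 ± 10.51) followed, each overlapping with the next. Mir378b lies inside the span of Msi2 and shares no exon bases with it.

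Gpr56 (chromosome 8, 97501009 to 97538108, plus strand, 3864 bases counted) had the widest range of the 6 genes. At E8.5 EC had 1.65, 0.157 and 0.0627 CPM, from 41, 4 and 1 counts, and HE had 3.42, 2.30, 6.37 and 3.36 CPM. At E9.5 EC had 2.91, 4.19 and 2.49 CPM, HE had 13.7, 9.25 and 4.27 CPM, and pro-HSC/HPC had 112, 121 and 118 CPM. HE was above EC in every library at both days, and pro-HSC/HPC was above all HE libraries of any day. At E10.5 EC had 4.77, 4.33 and 6.18 CPM, HE had 44.3, 40.5 and 58.8 CPM, pre-HSC I had 323, 369.6 and 340.2 CPM, and pre-HSC II had 439, 493 and 505 CPM. The 4 highest means, pre-HSC II (479 ± 35.1 CPM), pre-HSC I (344 ± 23.4), pro-HSC/HPC (117 ± 4.71) and E10.5 HE (47.9 ± 9.66), did not overlap, and E9.5 HE (9.06 ± 4.70) lay 5.29-fold below the last. E10.5 EC (5.09 ± 0.966), E8.5 HE (3.86 ± 1.75) and E9.5 EC (3.20 ± 0.883) overlapped with their neighbours, and E8.5 EC (0.624 ± 0.892) was 5.12-fold below them without overlap.

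RefSeq lists 2 start sites for Gpr56 under its current symbol Adgrg1, and the 250 bases before each are shown because no other of the 6 genes was called in as many comparisons. They lie on the plus strand at chr8:94976859-94977108 and chr8:94984149-94984398 (GRCm38.p6).
Gpr56 first start: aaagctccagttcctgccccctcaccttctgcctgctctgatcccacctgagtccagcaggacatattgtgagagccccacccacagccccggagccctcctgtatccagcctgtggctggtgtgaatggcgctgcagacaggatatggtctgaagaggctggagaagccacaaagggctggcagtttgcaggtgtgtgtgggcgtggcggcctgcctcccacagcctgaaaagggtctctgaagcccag
Gpr56 second start: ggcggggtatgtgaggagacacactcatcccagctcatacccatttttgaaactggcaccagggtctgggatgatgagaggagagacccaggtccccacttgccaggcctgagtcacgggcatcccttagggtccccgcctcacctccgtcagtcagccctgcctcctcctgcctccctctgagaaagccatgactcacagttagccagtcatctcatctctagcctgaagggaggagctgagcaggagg
None of the listed motifs was found in either window, so no letters are in capitals, which says only that these letters are absent from the 250 bases searched.

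Levels of different genes can be compared per length. In E8.5 EC Meis1 had the highest mean of the 6 genes, 7.76 CPM per kilobase, followed by Msi2 at 4.33 and Mecom at 1.46. In E10.5 HE Mecom led at 66.3 CPM per kilobase, ahead of Meis1 at 33.8 and Gpr56 at 12.4. In pre-HSC II Gpr56 led at 124 CPM per kilobase, followed by Meis1 at 65.1, Msi2 at 27.1 and Hlf at 19.9, with Mecom at 9.85 and Prdm16 at 0.477. Mecom was thus the highest of the 6 in E10.5 HE and lower than all but Prdm16 in pre-HSC II, and Meis1 was among the highest 2 in these 3 populations.

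HE was set against EC of the same day to ask which genes mark the endothelium that makes blood. At E8.5 Mecom, Meis1, Gpr56 and Prdm16 were higher in HE, Hlf was lower, and Msi2 did not pass the test. In the edgeR quasi-likelihood fit over all libraries, Mecom rose by 3.56 ± 0.40 (log2 difference ± SE, adjusted p = 1.58e-06), Meis1 by 1.73 ± 0.24 (2.71e-05), Gpr56 by 2.53 ± 0.53 (0.00329) and Prdm16 by 2.93 ± 0.86 (0.0386). Hlf had 0 counts over HE and 114 over EC (edgeR adjusted p = 0.0025). From these pooled counts it was at least 54.6-fold lower in HE, taking 3 counts over the HE group as its floor. Of the 114 counts, 85 were in EC replicate 1 and 2 in EC replicate 3. The bound leaves out this spread and does not hold for each EC library. Hlf passed the filter through other populations and not in the E8.5 libraries alone, so its call rests on the fit over all libraries. The counts of 4 higher and 1 lower of 6 stand beside 5.08% of all tested genes called higher and 1.73% called lower. The 6 genes were chosen with earlier results of these data known, so such shares, here and below, are no test of the set. The median log2 difference of the 6 was 2.13, also with Hlf at its bound, beside 0 over all genes. The endothelial marker list was also higher in HE (7.06 to 7.79) than in EC (6.51 to 6.80), and its part in these differences was not tested. The call for Prdm16 was lost without EC replicate 1 (adjusted p = 0.160), EC replicate 2 (0.126), HE replicate 2 (0.0625) or HE replicate 3 (0.0824). Without EC replicate 3 its difference was 6.03 (0.000740), and without EC replicate 1 that of Gpr56 was 4.96 (8.43e-06). In a fit of the E8.5 libraries alone, Prdm16 (0.327) and Gpr56 (0.259) were not called and Hlf did not pass the filter.

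At E9.5 all 6 genes had a positive difference between HE and EC, but none passed in the edgeR fit over all libraries. Mecom came closest, at log2 1.67 ± 0.38 (edgeR adjusted p = 0.0518), with no overlap between the libraries. It was called with the replicate block (0.0380), with DESeq2's size factors (0.0481), without the filter (0.00616), by DESeq2 (0.00190) and in a fit of the 2 groups alone (0.00563). Prdm16 had 2.15 ± 0.81, Hlf 1.98 ± 0.91 and Gpr56 1.501 ± 0.47, with adjusted p from 0.293 to 0.719. The count of 0 of 6 higher stands beside 0.302% of tested genes called higher, and the count of 0 lower beside 0% called lower in edgeR. Without adjustment 368 genes had p under 0.05 in that direction, and DESeq2 called 12. The median of the 6 was 1.59, beside -0.01 over all genes. The endothelial list lay at 7.83 to 8.12 in HE and 7.37 to 7.76 in EC, and the blood list at 1.48 to 1.70 and 0.86 to 1.06. The mesenchyme list summed to 309 to 465 CPM in HE and 90.8 to 559 CPM in EC. The part of these 3 lists was not tested.

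At E10.5 Gpr56, Meis1, Mecom and Hlf were higher in HE than in EC. Gpr56 rose by 3.23 ± 0.49 (log2, edgeR adjusted p = 0.00023), Mecom by 2.19 ± 0.39 (0.000969), Meis1 by 1.56 ± 0.25 (0.000301) and Hlf by 3.19 ± 0.85 (0.0353). Prdm16 had 2.54 ± 0.80 (0.086) and Msi2 0.73 ± 0.36 (0.320), neither of which passed. Prdm16, with no overlap between the libraries, was called by DESeq2 (0.0120), without the filter (0.0414) and in a fit of the 2 groups alone (0.00315). The count of 4 higher and 0 lower stands beside 2.11% of genes called higher and 1.37% lower, and the median of 2.36 beside 0 over all genes. The call for Hlf was lost without EC replicate 2 (0.141), EC replicate 3 (0.150), HE replicate 1 (0.0613) or HE replicate 3 (0.106), and without EC replicate 1 its difference was 4.30 (0.0280). The endothelial list lay at 7.97 to 8.09 in HE against 7.52 to 7.60 in EC, and the blood list at 2.17 to 2.41 against 0.91 to 1.11. The 7 mesonephros and intermediate mesoderm genes summed to 99.3 to 162 CPM in HE, with 3 to 4 of them at 0, against 23.2 to 31.7 CPM in EC, with 2 to 3 at 0. The mesenchyme list summed to 227 to 916 CPM in HE against 25.0 to 371 CPM in EC. The part of these lists in the differences was not tested.

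The difference between HE and EC was itself compared between days. From E8.5 to E9.5 and from E8.5 to E10.5 only Hlf was called among the 6. It had 0 counts in HE at E8.5, its HE and EC libraries overlapped at E9.5, and HE lay above EC at E10.5. The fitted changes of 10.16 and 11.38 on the log2 scale (edgeR adjusted p = 0.00717 and 0.00046) rest on the 0 counts of E8.5 HE and are no estimate of size. The first of these calls was lost in a fit of the 4 groups alone (0.141). The difference for Mecom was smaller at E9.5 than at E8.5 by 1.89 ± 0.52, and that for Meis1 by 1.26 ± 0.33, without passing the test (adjusted p = 0.0983 and 0.0783). DESeq2 called both (0.0183 and 0.0139), and edgeR without the filter called Mecom (0.0316). The Mecom change was called without E8.5 EC replicate 3 (-2.36, adjusted p = 0.0204) and the Meis1 change without E9.5 EC replicate 3 (-1.54, 0.0117), the library rich in mesenchyme RNA. The Gpr56 change from E8.5 to E9.5, -1.02 ± 0.70 (0.760), was called without E8.5 EC replicate 1 (-3.44, 0.0137). From E9.5 to E10.5 no member was called, and the largest change was 1.73 ± 0.66 for Gpr56 (0.673). The counts of 1, 0 and 1 of 6 stand beside 0.847% of tested genes called in either direction from E8.5 to E9.5, 0.0131% from E9.5 to E10.5 and 2.99% from E8.5 to E10.5. For Mecom the change from E8.5 to E10.5 (-1.37 ± 0.52, 0.174) was called without E8.5 EC replicate 3 (-1.85, 0.0495).

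**Figure D2:**
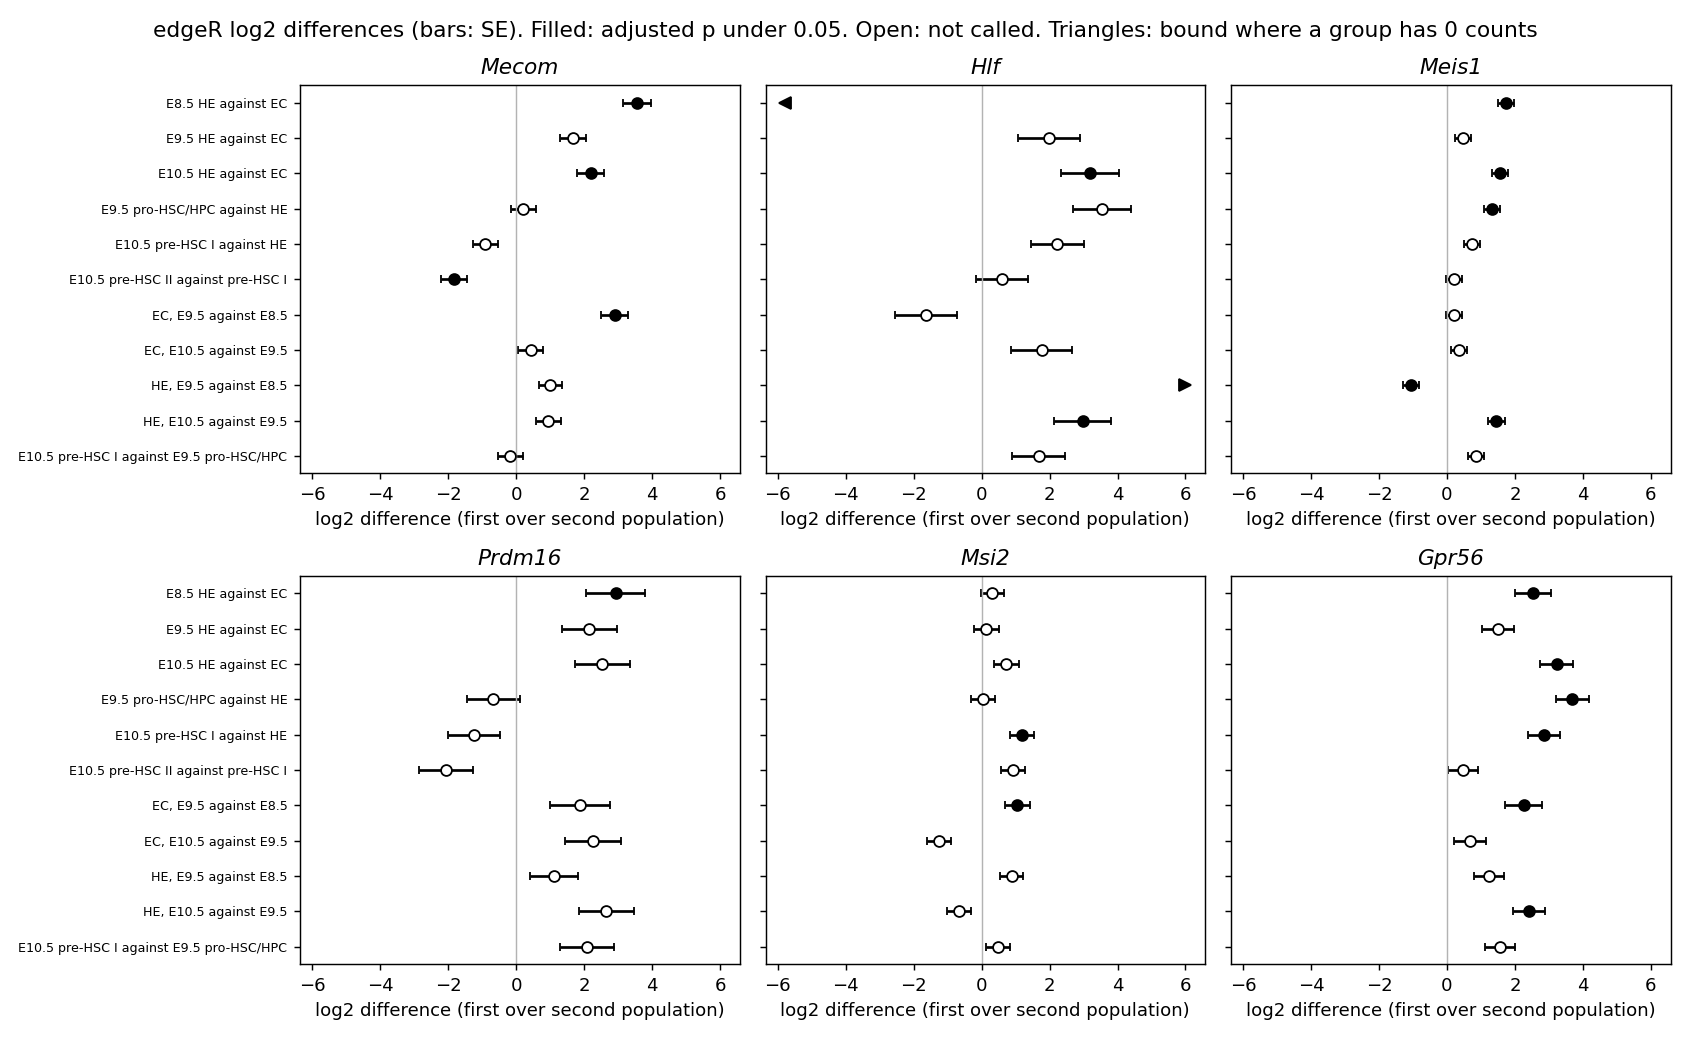
Log2 difference between populations (horizontal axis) for each gene in 11 comparisons (vertical axis), with the SE as bars, from edgeR. Filled points have an adjusted p under 0.05, open points do not, and triangles are bounds where a population has 0 counts. Gpr56 has 6 filled points, all to the right of 0, and Mecom has 1 to the left, pre-HSC II against pre-HSC I at -1.84.

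The step from HE to blood was followed at E9.5 and E10.5, in comparisons that share their HE libraries with those against EC. In pro-HSC/HPC Gpr56 and Meis1 were higher than in E9.5 HE. Gpr56 rose by 3.69 ± 0.49 (log2, edgeR adjusted p = 0.000102) and Meis1 by 1.33 ± 0.24 (0.00396). Hlf was higher in each pro-HSC/HPC library than in each HE library, at 3.53 ± 0.85, and did not pass (0.0566), though DESeq2 (0.0314) and edgeR without the filter (0.00286) called it. Mecom had 0.21 ± 0.37 and Msi2 0.04 ± 0.36, both with an adjusted p of 1, and Prdm16 had -0.67 ± 0.77. The count of 2 higher and 0 lower stands beside 0.505% of tested genes called higher and 0.151% lower, and the median of 0.77 beside 0.02. Without the 2 libraries rich in erythroid RNA, which leaves pro-HSC/HPC with 1 library, taken to vary as the rest do, Meis1 had 1.28 ± 0.33 and was not called (0.243), while Gpr56 was. The Meis1 call was also lost without HE replicate 3 (1.18 ± 0.27, 0.0656).

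In E10.5 pre-HSC I Gpr56 and Msi2 were higher than in HE, and Mecom and Prdm16 were not called. Gpr56 rose by 2.85 ± 0.47 (edgeR adjusted p = 0.000369) and Msi2 by 1.19 ± 0.36 (0.0442). Hlf had 2.23 ± 0.79 (0.0929), with all pre-HSC I libraries above all HE libraries, and Meis1 had 0.74 ± 0.24 (0.0636), also without overlap. Hlf was called without the filter (0.0305) and in a fit of the 2 groups alone (0.00270), and Meis1 by DESeq2 (0.0297). Mecom had -0.91 ± 0.37 (0.150) and Prdm16 -1.23 ± 0.77 (0.384), both lower in every pre-HSC I library than in every HE library. The count of 2 higher and 0 lower stands beside 3.08% and 3.80% of tested genes, and the median of 0.96 beside 0.01. The Msi2 call was lost without HE replicate 2 (0.202), HE replicate 3 (0.109), pre-HSC I replicate 1 (0.121) or pre-HSC I replicate 3 (0.103). Meis1 was called without HE replicate 2 (0.98 ± 0.26, 0.0340). Marker genes of several cell types moved with this comparison. The 10 endothelial markers summed to 1180 to 1666 CPM in pre-HSC I against 3854 to 4085 CPM in HE, with none at 0 in either. The blood markers summed to 677 to 898 CPM against 74.3 to 89.2 CPM, also with none at 0. The 10 megakaryocyte and platelet genes summed to 305 to 457 CPM, with at most 2 at 0 in a library, against 34.1 to 50.3 CPM. The 10 myeloid genes summed to 128 to 199 CPM against 8.80 to 15.1 CPM, with 2 to 4 and 4 to 5 of them at 0. Their part in the differences of the 6 genes was not tested. The differences between blood cells and HE were not called to differ between the days for any of the 6 genes, beside 0.0722% of tested genes called. The largest of these changes were -1.30 ± 1.09 for Hlf (edgeR adjusted p = 0.791), 1.14 ± 0.50 for Msi2 (0.438) and -1.12 ± 0.52 for Mecom (0.475).

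Pre-HSC II was set against pre-HSC I to ask what changes at the second pre-HSC step. Mecom fell, and it was the one member called. Its level dropped by 1.84 ± 0.38 (log2, edgeR adjusted p = 0.00244), with no overlap between the libraries, and the call held without any one of the 6 libraries. Prdm16 had -2.06 ± 0.79 (0.214), also without overlap. Msi2 had 0.93 ± 0.36 (0.214), Hlf 0.60 ± 0.75 (0.946), Gpr56 0.48 ± 0.44 (0.884) and Meis1 0.21 ± 0.24 (0.941), of which Msi2 and Gpr56 were higher in every pre-HSC II library. The count of 0 higher and 1 lower stands beside 0.138% of tested genes called higher and 4.28% lower, and the median of 0.34 beside 0. The endothelial markers also stood lower in pre-HSC II, where their 10 genes summed to 453 to 528 CPM against 1180 to 1666 CPM in pre-HSC I, with no marker at 0 in either. The mesenchyme list summed to 34.0 to 37.7 CPM against 136 to 461 CPM. The part of either list in the Mecom difference was not tested. The scatter of Mecom against Gpr56 shows that pre-HSC II combined the highest Gpr56 levels with Mecom levels in the range of EC.

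**Figure D3:**
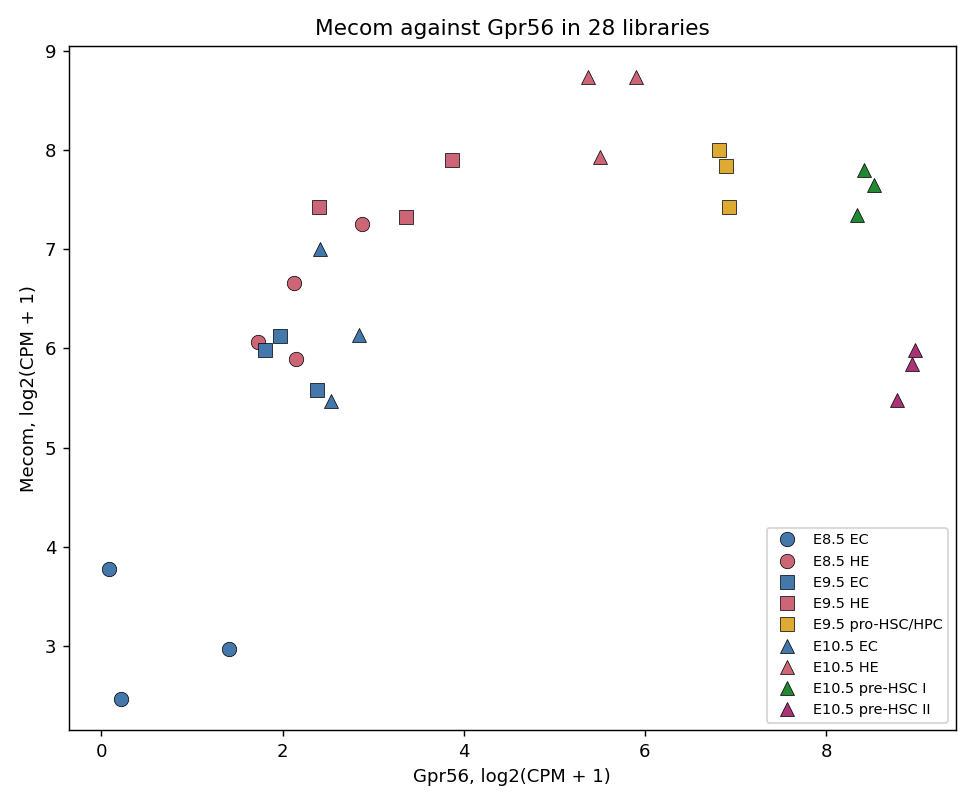
Mecom (vertical axis) against Gpr56 (horizontal axis), both as log2(CPM + 1), in 28 libraries, with colour for the cell population and marker shape for the embryonic day. E8.5 EC lies low on both axes, E10.5 HE is highest for Mecom (243 to 426 CPM), and pre-HSC II is highest for Gpr56 (439 to 505 CPM) at 43.8 to 62.3 CPM of Mecom.

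Populations were also compared between days. In EC Mecom, Gpr56 and Msi2 rose from E8.5 to E9.5 and none of the 6 was called from E9.5 to E10.5. Mecom rose by 2.90 ± 0.40 (log2, edgeR adjusted p = 2.34e-05), Gpr56 by 2.26 ± 0.55 (0.00496) and Msi2 by 1.05 ± 0.36 (0.0405). These 3 higher and 0 lower stand beside 10.1% of tested genes called higher and 9.56% lower, the largest share of any comparison, and the median of 1.47 stands beside 0.05. The Msi2 call was lost without E8.5 EC replicate 1 (0.0898) or replicate 3 (0.138) and without E9.5 EC replicate 1 (0.0639) or replicate 3 (0.202), the last being the library rich in mesenchyme RNA. Gpr56 was not called in a fit of the 2 groups alone (0.193), and without E8.5 EC replicate 1 it had 4.70 (1.65e-05). Prdm16, at 1.89 ± 0.89 (0.133), was called without E8.5 EC replicate 3 (5.002, 0.00209), which held 19 of its 21 counts in that group. From E9.5 to E10.5 Msi2 had -1.25 ± 0.36 (0.106, called by DESeq2 at 0.0356) and Prdm16 2.26 ± 0.81 (0.216). The counts of 0 stand beside 0.308% of genes called higher and 0.453% lower, and the median of 0.55 beside 0. Mecom, at 0.43 ± 0.37 (0.687), was at -0.07 without E10.5 EC replicate 2, one of the libraries rich in mesenchyme RNA.

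In HE Meis1 fell and Hlf rose from E8.5 to E9.5, and Meis1, Gpr56 and Hlf rose from E9.5 to E10.5. Meis1 fell by 1.06 ± 0.23 in the first interval (edgeR adjusted p = 0.00735) and rose by 1.45 ± 0.25 in the second (0.00128). Hlf went from 0 to 131 pooled counts over the group in the first interval (edgeR adjusted p = 0.00305). This gave a bound of at least 63.5-fold higher, which leaves out the spread between libraries. In the second interval Hlf rose by 2.98 ± 0.84 (0.0473). Gpr56 had 1.23 ± 0.43 (0.0808) and then rose by 2.40 ± 0.47 (0.00381). Mecom had 1.01 ± 0.34 (0.0743) and 0.95 ± 0.37 (0.168), and Prdm16 had 1.12 ± 0.72 (0.365) and 2.65 ± 0.81 (0.0654), the latter without overlap. The 1 higher and 1 lower of the first interval stand beside 2.97% and 3.58% of tested genes, and the 3 higher and 0 lower of the second beside 1.49% and 2.15%. The medians were 1.06, also with Hlf at its bound, and 1.93, beside 0.02 in each interval. The E8.5 to E9.5 call for Meis1 was lost without E9.5 HE replicate 3 (-0.89, 0.0751). In a fit of those 7 libraries alone Meis1 was called (0.0394) and Hlf did not pass the filter, so its call rests on the fit over all libraries. Of the 131 Hlf counts in E9.5 HE, 73 were in replicate 1, 56 in replicate 2 and 2 in replicate 3. DESeq2 called Mecom (0.0360) and Gpr56 (0.0318) in the first interval, as did edgeR without the filter (0.0411 and 0.0384). Without E8.5 HE replicate 3, Mecom (1.36, 0.0153), Msi2 (1.21, 0.0230) and Gpr56 (1.599, 0.0249) were called in that interval. The E9.5 to E10.5 call for Hlf was lost without any one of the 6 libraries, with adjusted p from 0.0678 to 0.169. Prdm16 was called in that interval by DESeq2 (0.00688), without the filter (0.0334) and in a fit of the 2 groups alone (0.00122), and Mecom in that fit (0.0430).

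Between pre-HSC I and pro-HSC/HPC, sampled beside HE at E10.5 and E9.5, none of the 6 genes was called in the edgeR fit over all libraries. Meis1 had 0.86 ± 0.24 (edgeR adjusted p = 0.0766), Gpr56 1.56 ± 0.45 (0.0871), Hlf 1.68 ± 0.77 (0.377) and Prdm16 2.09 ± 0.79 (0.242), and all 4 were higher in every pre-HSC I library. DESeq2 called Meis1 (0.0111) and Gpr56 (0.0132), the latter also called without the filter (0.0256), and a fit of the 2 groups alone called Gpr56 (0.0108), Hlf (0.0308) and Prdm16 (0.0445). Mecom had -0.17 ± 0.37 (0.924) and Msi2 0.48 ± 0.36 (0.652). The counts of 0 stand beside 0.230% of genes called higher and 1.22% lower, and the median of 1.21 beside 0. Over the 11 comparisons, in the fit over all libraries, Gpr56 was called 6 times, always higher, Meis1 5 times, Mecom and Hlf 4 times each, Msi2 2 times and Prdm16 in E8.5 HE alone.

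Relatives and partners of the 6 genes were read from the same fit. In E8.5 HE against EC, Meis2, the closest relative of Meis1, rose by 3.20 ± 0.61 (log2, edgeR adjusted p = 0.00137). Of the HOX genes, whose proteins bind DNA together with MEIS proteins, Hoxa7 (-2.30 ± 0.45), Hoxa9 (-2.08 ± 0.41) and Hoxa10 (-2.01 ± 0.48), named after its values were seen, fell. The calls for Meis2, Hoxa7 and Hoxa9 were not made in a fit of the E8.5 libraries alone (adjusted p = 0.0577, 0.116 and 0.127). In pre-HSC II against pre-HSC I Meis2 fell by 2.23 ± 0.60 (0.0268), at the step where Meis1 had 0.21 ± 0.24. That call was lost without pre-HSC I replicate 3 (0.140), pre-HSC II replicate 1 (0.178) or pre-HSC II replicate 2 (0.177). The mean of Meis2 was 74.1 ± 25.2 CPM for E10.5 HE, 21.4 ± 8.01 for pre-HSC I and 4.60 ± 4.00 for pre-HSC II, an order that Mecom also had.

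Of 13 other PRDM genes 10 were tested. No PRDM relative was called between HE and EC on any day. Prdm1, which encodes the repressor Blimp1, averaged 4.07 ± 0.953 CPM in HE of E10.5 against 0.553 ± 0.717 for pre-HSC I, and fell by 2.89 ± 0.86 between them (edgeR adjusted p = 0.0394). That call was lost without any one of the 3 HE libraries (adjusted p from 0.0619 to 0.0840) or without pre-HSC I replicate 2 (0.147) or 3 (0.150), in a fit of those groups alone (0.207) and with the replicate number as a block (0.0589). Among 8 genes of corepressors that work with PRDM proteins, 2 fell and none rose in pre-HSC II against pre-HSC I. Skil fell by 2.23 ± 0.35 (8.22e-05) and Ski by 1.19 ± 0.27 (0.00555). These calls stand beside 4.28% of tested genes called lower and 0.138% higher, and the median of the 8 was -0.08 beside 0. The Ski call was lost without pre-HSC II replicate 2 (0.0533) and in a fit of those groups alone (0.0524). The other members of the PAR-type family and its antagonist, Dbp, Tef and Nfil3, were called in none of the 11 comparisons. Per kilobase Tef had means of 0.218 to 1.69 CPM and Dbp of 0.175 to 0.743, against 0 to 19.9 for Hlf.

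Msi1, the second Musashi gene, did not pass the filter and had 0 counts in all 9 libraries of HE, pre-HSC I or pre-HSC II at E10.5. Numb, an mRNA target of Musashi proteins, had means of 64.9 ± 17.7 CPM (E10.5 HE) and 28.5 ± 3.68 CPM (pre-HSC I). It fell by 1.18 ± 0.31 (log2, edgeR adjusted p = 0.0177) between these populations. Its call was lost without HE replicate 2 (0.108), HE replicate 3 (0.0509) or pre-HSC I replicate 2 (0.103). A link between Numb and Msi2 was not tested. Of 30 adhesion receptors and Gpr56 ligands 19 were tested. Gpr97 is a neighbour of Gpr56 in the same receptor subfamily. Its mean was 66.6 ± 16.4 CPM for E10.5 EC and 6.56 ± 6.05 for HE, and it fell by 3.34 ± 0.56 (0.000572) in HE, and rose by 2.05 ± 0.53 (0.0172) from HE to pre-HSC I. The rise was not called without HE replicate 1 (0.0529) or pre-HSC I replicate 2 (0.0755), or in a fit of those groups alone (0.110). Cd97, another adhesion receptor, rose in E10.5 HE against EC (1.66 ± 0.36, 0.00742) and fell in pre-HSC I against HE (-1.34 ± 0.36, 0.0194). The fall was not called without HE replicate 2 (0.0858), HE replicate 3 (0.0925), pre-HSC I replicate 1 (0.0920) or pre-HSC I replicate 3 (0.0508). In pre-HSC II against pre-HSC I 5 of the 19 fell and none rose, beside 4.28% of tested genes called lower and 0.138% higher, with a median of -0.69 beside 0. Among them Gpr116, an adhesion receptor of endothelium, fell by 2.66 ± 0.35 (6.2e-06) and Tgm2, a transglutaminase known as a Gpr56 ligand, by 2.17 ± 0.48 (0.00485), the latter not called without pre-HSC II replicate 2 (0.0545). The map of mean levels shows the 6 genes among these relatives.

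**Figure D4:**
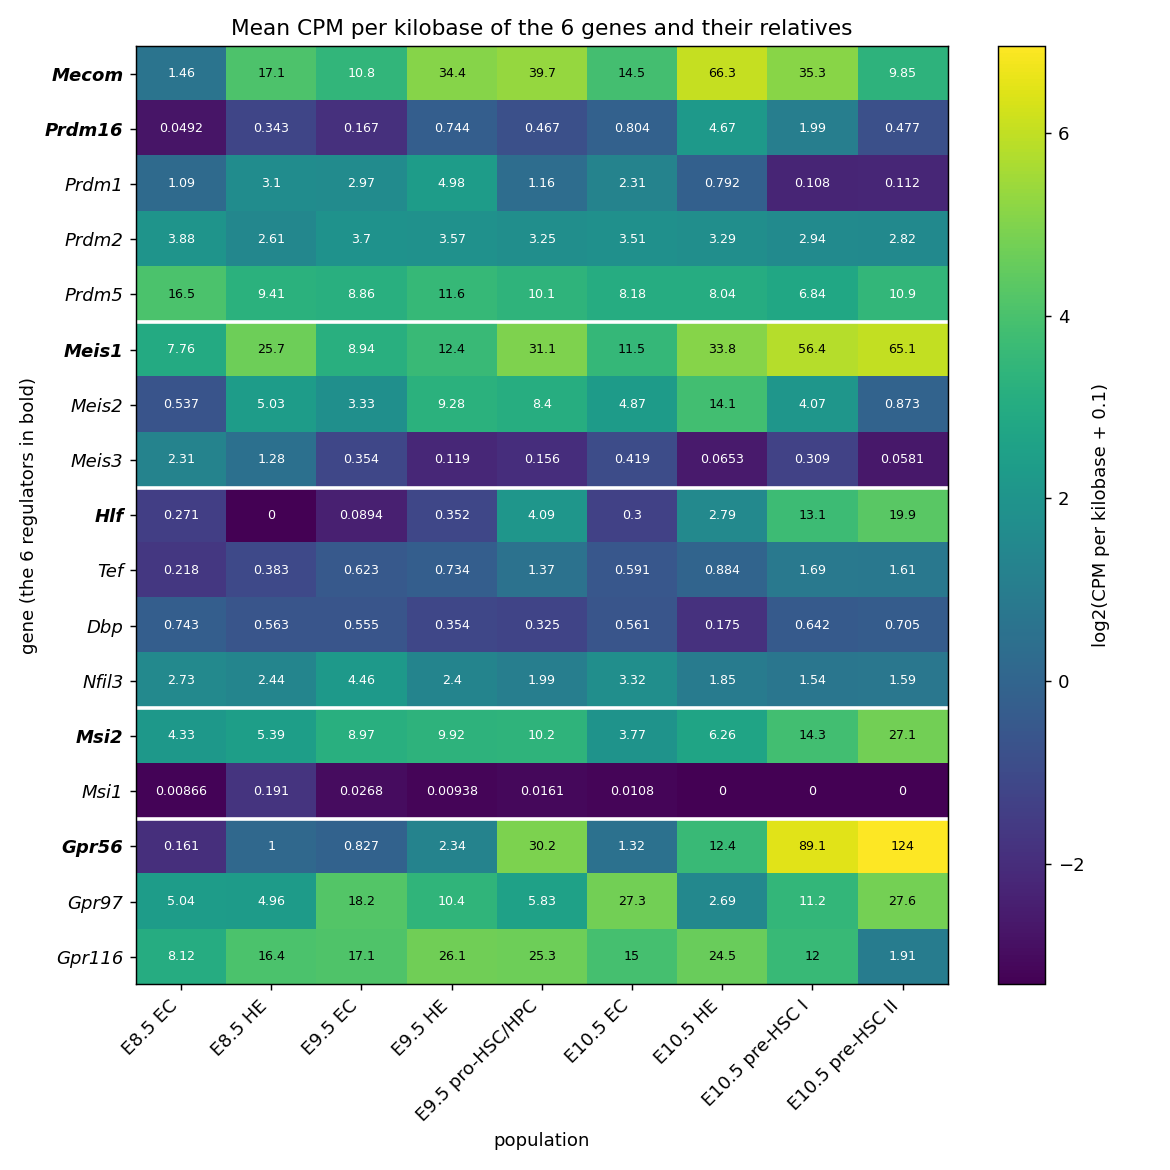
Mean CPM per kilobase (number in each cell) of the 6 genes (bold) and relatives (vertical axis) in 9 populations (horizontal axis), coloured by log2(CPM per kilobase + 0.1) and grouped by family. In E10.5 HE and EC Gpr56 is at 12.4 and 1.32 and Gpr97 at 2.69 and 27.3, and Msi1 stays near 0 in all populations.

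Of 32 other stem cell regulators and markers, 10 rose and none fell in E10.5 HE against EC, beside 2.11% of tested genes called higher and 1.37% lower, and their median of 0.64 stands beside 0 over all genes. Gata2, a zinc finger factor needed for blood formation, had a mean of 213 ± 25.8 CPM in HE against 71.7 ± 13.7 CPM in EC and rose by 1.57 ± 0.21 (log2, edgeR adjusted p = 4.79e-05). Nkx2-3, a homeodomain factor, rose by 3.83 ± 0.58 (0.000298) and Angpt1, an angiopoietin, by 3.83 ± 0.62 (0.000392). From HE to pre-HSC I 5 of the 32 rose and 5 fell, beside 3.08% of tested genes called higher and 3.80% lower. Kit, the stem cell factor receptor, rose by 2.26 ± 0.37 (0.000307) and Mycn by 2.63 ± 0.35 (3.41e-05), while Tek, an endothelial receptor, fell by 1.39 ± 0.23 (0.000335). In pre-HSC II against pre-HSC I 8 of the 32 fell and none rose, beside 4.28% of tested genes called lower and 0.138% higher, with a median of -0.62 beside 0. Among them Tek fell by 1.65 ± 0.23 (1.74e-05), Cdkn1c, a cell cycle inhibitor, by 1.95 ± 0.30 (5.44e-05) and Esam, an adhesion molecule of endothelium and stem cells, by 1.44 ± 0.22 (5.75e-05). Tek and Esam are also among the endothelial markers used to check the labels.

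Genes with the most similar pattern were found by Pearson's r of log2(CPM + 1) over the 9 population means. The search covered 9237 tested genes whose mean reached 10 CPM in some population. Genes with systematic symbols, such as Gm numbers or names ending in Rik, and small RNA genes were left out of it. The r values are descriptions over 9 points that share libraries and scaling. Mecom was nearest to Cd55, a complement regulator on the cell surface (r = 0.985), and Cyp26b1, an enzyme that degrades retinoic acid (0.984), followed by Ano6, Mospd2 and Sgms1. Means of Cyp26b1 were 0.118 CPM for E8.5 EC, 83.3 for E10.5 HE, 61.9 for pre-HSC I and 9.86 for pre-HSC II. Prdm16 was nearest to Tnfrsf26 (0.964), which had means of 140.5 CPM (E10.5 HE) and 7.99 CPM (pre-HSC II), then to Malat1, Fuca1, Ccdc60 and St3gal2. Meis1 was nearest to Acp6 (0.964), Tspan32, Neil3, Smim3 and F5, the gene of coagulation factor V.

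Hlf was nearest to the adaptor Dok2 (0.991), then to Mctp1, Spn, which encodes CD43, Dock2 and Ostm1. Means of Dok2 were 20.0 CPM for pro-HSC/HPC, 75.7 for pre-HSC I and 114 for pre-HSC II. Gpr56 was nearest to Angpt1, the angiopoietin that binds the receptor Tek (0.992), followed by Apbb1ip, Tspan32, Gltp and Tmem229b. Means of Angpt1 were 46.6 ± 13.5 CPM for E10.5 HE, 220.3 ± 22.7 for pre-HSC I and 288 ± 46.7 for pre-HSC II. Msi2 was nearest to Panx1 (0.975), Atp11b, Ugcg, Bag4 and Trmt1l. Over the 28 libraries the first of these stayed first by r for Hlf (0.963) and Gpr56 (0.973), whereas Panx1 ranked 289 for Msi2 (0.659). Among the 6 genes themselves the highest r over the 9 means was 0.964, between Hlf and Gpr56, and that between Mecom and Prdm16 was 0.822, while Prdm16 and Msi2 had 0.083.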

How the data were processed

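The authors deposited raw read counts per gene for RNA from 100 sorted cells per library, amplified from polyadenylated RNA by SMARTer Ultra Low Input chemistry, per the labels' protocols. Reads were processed with TopHat, SAMtools and Subread featureCounts 1.6.2 on mm9, per the submitters' processing notes. The table also holds gene lengths and exon positions. Each deposited count column was matched to its sample by name. From the counts, TMM-scaled CPM were computed per library, and edgeR's quasi-likelihood test (edgeR 4.0.16, R 4.3.3, filterByExpr with a minimum count of 10) was fitted over all 28 libraries and 9 populations on 15238 genes, with a common biological coefficient of variation of 0.563. P-values were adjusted by Benjamini-Hochberg over all tested genes, and a gene was called at an adjusted p under 0.05. The script was tested on simulated data. Alternatives were DESeq2 1.42.0, its size factors in edgeR, no filter, a fit of only the groups compared, the replicate number as a block, each library left out, and the hemoglobin-rich pro-HSC/HPC libraries left out. The 6 genes and the gene lists were chosen with earlier results of these data known. The text names all 6 genes, up to 4 called genes of a list with the smallest p in a comparison, the closest relatives, and the 5 genes with the highest r for each of the 6. Bounds use a floor of 3 counts over a group and cover counting error only. Promoter sequences are from RefSeq on GRCm38.p6, whereas gene positions are those of the deposited mm9 table, and the 2 builds were not combined. All 6 genes matched a RefSeq promoter entry, Gpr56 as Adgrg1. Some genes of the lists are not reported here.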

Additional observations from a re-analysis of the deposited data

Results flagged for a closer look

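Among the 4 E8.5 HE libraries Meis1 was at 109 CPM in replicate 1 and between 81.0 and 83.0 CPM in the other 3, a gap that takes up most of the range of the group. The threshold used marks about 1 in 20 groups by chance. The call for Meis1 in E8.5 HE against EC held without that library.

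For Hlf the difference between HE and EC differed between embryonic days by the test of the change itself, in the fit over all libraries. The fitted changes on the log2 scale were 10.16 from E8.5 to E9.5 (edgeR adjusted p = 0.00717) and 11.38 from E8.5 to E10.5 (0.00046), both resting on 0 counts in the 4 E8.5 HE libraries, and neither is a bound. The call from E8.5 to E9.5 was lost in a fit of the 4 groups alone (edgeR adjusted p = 0.141). Of the 114 Hlf counts in E8.5 EC, 85 were in replicate 1.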

How the results depend on the processing

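Scaling by DESeq2's size factors moved the median of all genes by at most 0.039 (log2). Of 90 values for the 6 genes, DESeq2 left 78 and the size factors 89 on the same side of the threshold, and DESeq2's other 12 were gained calls. Genes called by DESeq2 numbered 1757, 174 and 974 for HE against EC at E8.5, E9.5 and E10.5 (edgeR 1038, 46 and 530), 227 for pro-HSC/HPC and 1647 for pre-HSC I against HE (100 and 1049), 444 for EC from E9.5 to E10.5 (116), 1804 and 1091 for HE in its 2 intervals (997 and 555), 511 for pre-HSC I against pro-HSC/HPC (221), 311, 44 and 842 for the changes of the HE-EC difference (E9.5 against E8.5, E10.5 against E9.5, E10.5 against E8.5; 129, 2 and 455) and 208 for the change of the blood-HE difference (11). DESeq2 called 1 of the 6 genes in E9.5 HE against EC (Mecom), 1 in EC from E9.5 to E10.5, 4 in HE from E8.5 to E9.5, 2 in pre-HSC I against pro-HSC/HPC and 3 in the change from E8.5 to E9.5. With the size factors 1 was called in E9.5 HE against EC (Mecom, adjusted p = 0.0481).

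Without the filter 100 genes and 1 of the 6 were called in E9.5 HE against EC, 155 genes for pro-HSC/HPC against HE, 4 of the 6 in HE from E8.5 to E9.5, 1 in pre-HSC I against pro-HSC/HPC, 2 in the change from E8.5 to E9.5, 10 genes in the change from E9.5 to E10.5 and 30 in the blood-HE change. In fits of only the groups compared, 191 genes and 2 of the 6 were called in E8.5 HE against EC, 140 and 1 at E9.5, 201 genes for pro-HSC/HPC against HE, 469 and 1 in HE from E8.5 to E9.5, 950 and 5 from E9.5 to E10.5, 3 of the 6 in pre-HSC I against pro-HSC/HPC, 75 and 0 in the change from E8.5 to E9.5, 238 genes in that from E8.5 to E10.5 and 81 in the blood-HE change. Without the hemoglobin-rich libraries 24 genes and 1 of the 6 were called for pro-HSC/HPC against HE, and Msi2 was at -0.12.

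Leaving out each library gave ranges of genes called of 582 to 1373 for E8.5 HE against EC, the lowest without HE replicate 3, 11 to 38 at E9.5, 284 to 455 at E10.5, 50 to 85 for pro-HSC/HPC and 512 to 1091 for pre-HSC I against HE, 1714 to 2920 and 26 to 114 in EC, 264 to 1529 and 210 to 489 in HE, 57 to 181 for pre-HSC I against pro-HSC/HPC, 83 to 182 and 0 to 3 for the changes from E8.5 to E9.5 and E9.5 to E10.5, and 3 to 61 for the blood-HE change. Of the 6 genes, 1 to 2 were called for pro-HSC/HPC against HE, 1 to 2 for pre-HSC I against HE, 1 to 5 in HE from E8.5 to E9.5 (5 without E8.5 HE replicate 3), and 1 to 2 in the changes from E8.5 to E9.5 and to E10.5. Directions turned only for values that were not called: Msi2 in E9.5 HE against EC (-0.24 to 0.44), Msi2 in pro-HSC/HPC against HE (-0.16 to 0.43), Mecom in EC from E9.5 to E10.5 (-0.073 to 0.75), and, among the changes of the HE-EC difference, Msi2 from E8.5 to E9.5 (-0.56 to 0.14), Prdm16 from E9.5 to E10.5 (-0.18 to 0.80) and from E8.5 to E10.5 (-3.49 to 0.23), and Gpr56 from E8.5 to E10.5 (-1.72 to 1.199). The causes were not tested.

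The replicate number was fitted as a block. Correlations of the deviations of same-numbered libraries ran from -0.0908 to 0.229, and in no comparison did every number exceed 0.1, the value set for treating equal numbers as pairs. In the 6 comparisons within a day 17 of 18 libraries correlated best with their own number, and in the 5 between days 3 of 15, a hint from the data and not from the design that a number is shared within a day. The block is therefore given as an alternative. With the block 1 of the 6 genes was called in E9.5 HE against EC (Mecom, 1.69, edgeR adjusted p = 0.0380), 0 genes in the change from E9.5 to E10.5 and 34 in the blood-HE change, and no other call for the 6 genes changed. The block gave each number the same effect on every day. It is therefore not a pairing within a day, which was not fitted.

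Low counts limit Hlf and Prdm16 in EC and E8.5 HE and Gpr56 in E8.5 EC. In E8.5 EC replicate 1 held 85 of 114 counts of Hlf and 41 of 46 of Gpr56, and replicate 3 held 19 of 21 of Prdm16, so differences against that group rest on few reads.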
